A study of Mus musculus with 6 samples.

Results

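The secreted Wnt proteins, their Frizzled receptors, the co-receptors Lrp5 and Lrp6, the R-spondins and the secreted Frizzled-related proteins (Sfrps) were examined in colon tissue of mice with chemically induced colorectal tumours. The genes were taken by symbol, as every Wnt, Fzd, Rspo1 to Rspo4, Sfrp1 to Sfrp5, Lrp5 and Lrp6 entry of the deposited gene table, which gave 39 of 20170 genes. They were 19 Wnt ligands, 10 Frizzleds, 4 R-spondins, 4 Sfrps and 2 Lrp co-receptors. No measured value was used in taking genes by symbol, but the family itself was chosen with earlier results of these data known. All samples were C57BL/6J mice of WT genotype, in which azoxymethane (AOM, a mutagen) at 10 mg/kg was followed by 3 intermittent periods of 2% dextran sulfate sodium (DSS, an irritant of the colon lining) in the drinking water. The restrained group (AOM/DSS with chronic restraint stress, 3 samples) was also confined for 3 to 4 hours per day in a ventilated 50 mL tube, and the unrestrained group (AOM/DSS, 3 samples) was not. The labels give neither age nor whether each sample is a separate mouse, so the p-values below speak to the spread among these libraries, part of which may be technical. Nor do they say whether the tissue was tumour or adjacent colon, or whether animals were pooled.

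Wnt proteins are lipid-modified signals that act over short distances. They bind a Frizzled and Lrp5 or Lrp6 together, which stabilises beta-catenin and turns on target genes, and in the intestine this signal keeps crypt stem cells dividing. R-spondins amplify it by removing the ubiquitin ligases Rnf43 and Znrf3, which clear Frizzleds from the cell surface, and Sfrps bind Wnt proteins outside the cell through a domain shared with Frizzleds. In mouse colon, epithelium and the stroma below it make different Wnt ligands, and most R-spondin comes from stroma.

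Lrp5 gave the clearest separation of the groups. Its message was higher in every restrained sample than in every unrestrained one, by a log2 fold change of 0.65 ± 0.10 (SE), while Lrp6 did not follow it. Sfrp4 was higher in the restrained group at a low level, and Wnt4 and Fzd8 were lower. Wnt6 and Wnt10a, the ligands with the highest mean levels, varied widely between samples of both groups, with the highest values in restrained replicate 3 and almost none in unrestrained replicate 1. Of the 32 genes that passed the filter on low counts, 19 had a fold change above 0 and 13 below, with a median log2 fold change of 0.11, against -0.015 over all 15890 genes tested.

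None of the 32 passed an adjusted p of 0.05 in the quasi-likelihood test of edgeR, and neither did any other gene (0% of those tested). At an unadjusted p under 0.05 stood 4 of the 32 (12.5%), against 16.6% of all genes tested. Higher were Lrp5 and Sfrp4, 2 genes where the share over all genes was 7.82%, and lower were Wnt4 and Fzd8, 2 genes where it was 8.82%. The groups did not overlap for 2 tested members, Lrp5 and Sfrp4, both higher, or 6.25%, against 23.8% of all genes in either direction, 12.5% higher and 11.2% lower. DESeq2 called 2 members at an adjusted p of 0.05, Lrp5 and Wnt4, or 6.25%, against 5.16% of the genes to which it gave an adjusted p. These counts shifted with single samples. The count of higher members at an unadjusted p under 0.05 was 5 without restrained replicate 1, unrestrained replicate 2 or unrestrained replicate 3. In these runs 32, 34 and 32 members were tested, and 1436 of 16175, 1185 of 16183 and 1250 of 16106 genes were higher. The 5 without unrestrained replicate 2 included Wnt7a, which was not tested in the main run. The count of lower members was 0 without restrained replicate 3, where 845 of 16153 genes were lower. It was 1 without unrestrained replicate 1 or 3, where 1245 of 16221 and 1315 of 16106 genes were lower. Lrp5 was among the higher members each time a sample was left out.

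**Figure D1:**
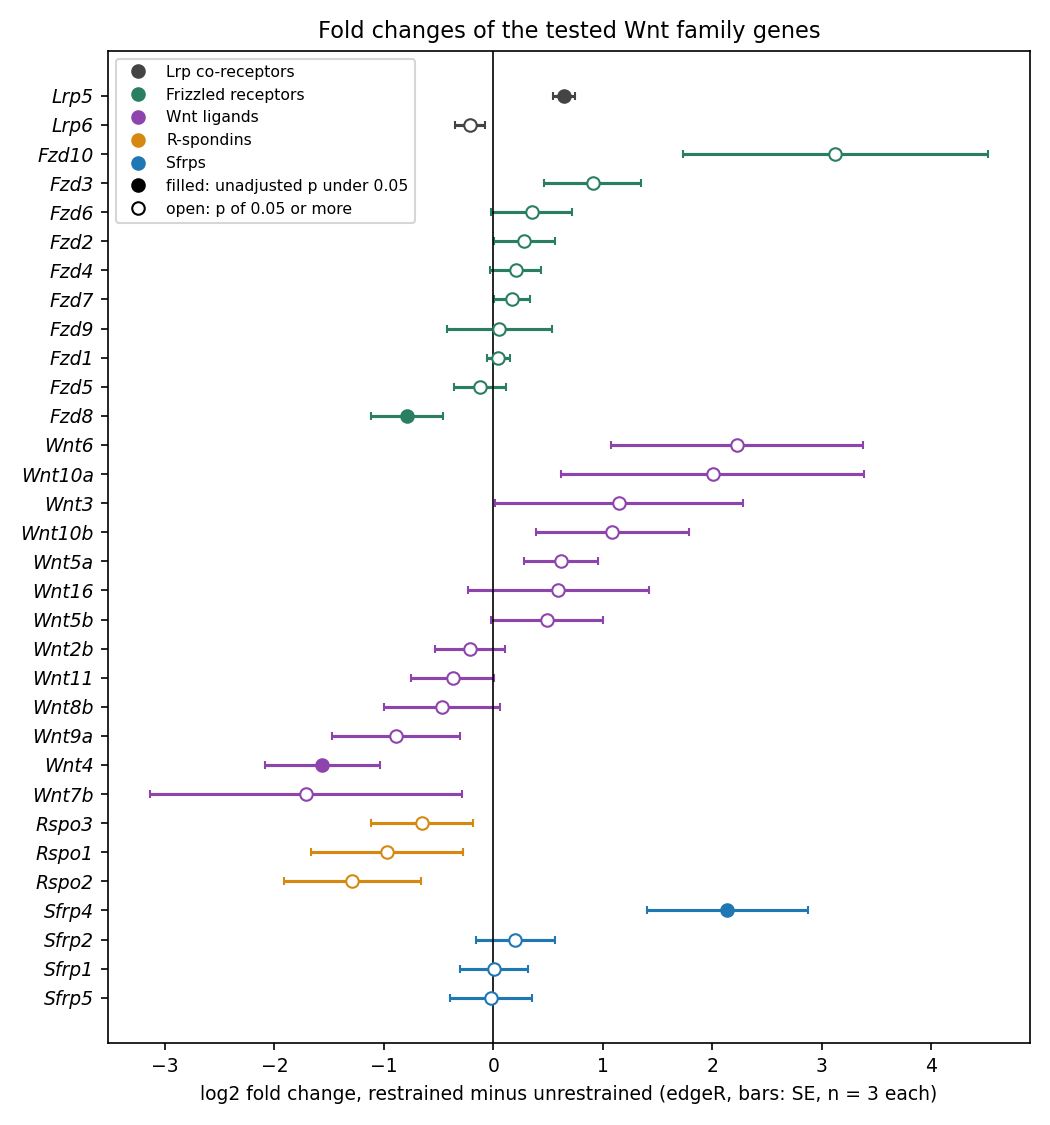
Log2 fold change in edgeR (x axis, restrained minus unrestrained, bars are SE, 3 samples in each group) of each of the 32 tested genes, in rows by family. Lrp5 lies at 0.65 with a narrow bar, Wnt6 and Wnt10a lie above 2 with bars of 1.15 and 1.39, and all 3 tested R-spondins lie below 0.

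The libraries held 27160547 to 33017500 counts each. Where a gene had no read, levels of up to 3 counts, or 0.0912 to 0.111 CPM, remain possible from counting error alone (CPM are counts scaled to library size, here by the TMM method). The labels give the cell type as colorectal cancer cell, but the libraries held other tissue of the colon wall too. Across 10 of 10 smooth muscle markers, all detected in every sample, the summed level was 2629 to 4289 CPM in restrained and 5797 to 7954 CPM in unrestrained samples. All 10 had a fold change below 0 at an unadjusted edgeR p under 0.05, against 8.82% of all genes. The 11 markers of colon epithelium summed to 11172 to 15377 CPM in restrained and 12120 to 19717 CPM in unrestrained samples. Of these, 3 had a fold change above 0 and 8 below. Unrestrained replicate 1 was the highest sample for every marker but Krt18. It was at 1103 CPM for Slc26a3, against 105 to 363 CPM elsewhere, and at 186 CPM for Cdx2, against 26.4 to 61.7 CPM. The part of this in the low Wnt6 and Wnt10a levels of that sample was not tested. The 6 leukocyte markers summed to 354 to 575 CPM in restrained and 1157 to 1567 CPM in unrestrained samples, most of it Cd74, an antigen-presentation gene, at 281 to 496 CPM in restrained and 946 to 1479 CPM in unrestrained samples. Of these 6, 4 had a fold change below 0 and 2, Cd68 and Itgam, above 0 (log2 0.10 and 0.43). The 9 enteric neuron markers summed to 69.4 to 84.7 CPM in restrained and 109 to 192 CPM in unrestrained samples. Of the 9, 8 were below 0 and at an unadjusted p under 0.05, against the same 8.82% of all genes. The 11 squamous epithelium markers, such as Krt5, summed to 44.8 to 78.2 CPM in restrained samples and to 5.68, 25.7 and 3014 CPM in unrestrained replicates 1, 2 and 3. Trp63, the p63 factor of squamous basal cells, was at 35.7 CPM in unrestrained replicate 3 and at most 0.191 CPM elsewhere. In bulk tissue, fewer cells of a type and less RNA per cell cannot be told apart, and this holds for every level given here.

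Among the ligands, levels between genes were compared on the deposited FPKM scale, which divides by gene length. Wnt6 had the highest mean level over the 6 samples, at 13.6 FPKM, followed by Wnt10a at 7.26, Wnt5a at 4.49, Wnt4 at 2.005 and Wnt5b at 1.61 FPKM. The other 14 ligands averaged below 1 FPKM, from Wnt2b at 0.842 FPKM to Wnt8a, which had 1 read in restrained replicate 3 and none in the other samples. The order was not the same in every sample. The leading ligand was Wnt5a in restrained replicate 1, Wnt6 in restrained replicates 2 and 3, Wnt5a in unrestrained replicate 1, Wnt6 in unrestrained replicate 2 and Wnt4 in unrestrained replicate 3. Summed over all 19 ligands, the level was 16.2, 35.04 and 89.8 FPKM in restrained replicates 1, 2 and 3, and 6.83, 25.3 and 25.4 FPKM in unrestrained replicates 1, 2 and 3. Restrained replicate 1 lay below 2 of the unrestrained samples, so the groups overlapped. Wnt6 and Wnt10a together made up 39.4%, 60.7% and 83.5% of that sum in the restrained samples and 9.22%, 49.5% and 37.04% in the unrestrained ones. Without those 2 ligands the sums were closer, at 9.82, 13.8 and 14.9 FPKM in restrained samples and 6.2, 12.8 and 15.96 FPKM in unrestrained samples.

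**Figure D2:**
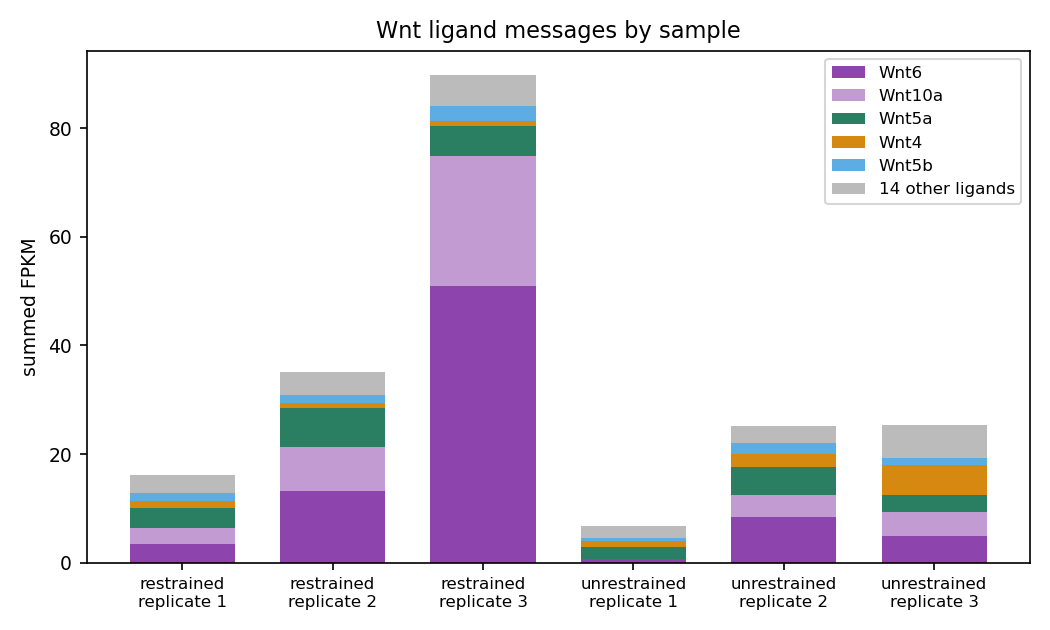
Summed FPKM (y axis) of the 19 Wnt ligands in each of the 6 samples, stacked by ligand, with the restrained samples on the left. Most of the difference between the tallest bar, 89.8 FPKM in restrained replicate 3, and the others is Wnt6 and Wnt10a.

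Wnt6, a ligand made by epithelia, was at 7.17, 27.2 and 100.2 CPM in restrained replicates 1, 2 and 3, against 1.401, 17.03 and 10.4 CPM in unrestrained replicates 1, 2 and 3. Restrained replicate 1 was below unrestrained replicates 2 and 3, so the groups overlapped. The log2 fold change was 2.22 ± 1.15 (SE) (edgeR adjusted p = 0.364), and without restrained replicate 3 it was 0.84. Wnt10a, an epithelial ligand that signals through beta-catenin, was at 5.79, 15.9 and 44.7 CPM in the restrained samples, against 0, 7.86 and 8.67 CPM in the unrestrained ones. It had the same high and low samples as Wnt6. Its log2 fold change was 2.002 ± 1.39 (SE) (edgeR adjusted p = 0.472), and 0.98 without restrained replicate 3. In the RefSeq annotation of GRCm38.p6, Wnt6 and Wnt10a are adjacent protein-coding genes on mouse chromosome 1. The same holds for 3 other pairs of ligands, Wnt3a with Wnt9a, Wnt9b with Wnt3, and Wnt10b with Wnt1. The strand setting of the authors' counting is not given in the sources used here, and in that annotation Wnt6 and Wnt10a each overlap a long non-coding RNA gene, as does Lrp5, so reads of these genes may include some of the overlapping transcript.

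Wnt3, which Paneth cells make in mouse small intestine, and the receptor Fzd10 shared this pattern. Wnt3 was at 0.980, 3.41 and 3.75 CPM in the restrained samples, against 0, 1.95 and 1.703 CPM in the unrestrained ones. Fzd10 was at 1.501, 3.35 and 20.1 CPM in the restrained samples, against 0, 1.15 and 1.67 CPM in the unrestrained ones. For both genes restrained replicate 3 was highest, unrestrained replicate 1 had no read, and restrained replicate 1 fell below the highest unrestrained sample. The log2 fold changes were 1.15 ± 1.13 for Wnt3 and 3.12 ± 1.39 (SE) for Fzd10 (edgeR adjusted p = 0.611 and 0.318), with 0.57 for Wnt3 without unrestrained replicate 1 and 1.36 for Fzd10 without restrained replicate 3. Wnt3 overlaps the neighbouring Wnt9b in the RefSeq annotation, and Wnt9b had at most 12 counts in any sample. The 4 Paneth cell markers in the table, such as Lyz1, summed to 371 to 1834 CPM in restrained and 9.73 to 481 CPM in unrestrained samples. Nearly all of that sum was Lyz1 and Mmp7, both with a fold change above 0. Mptx2 had a log2 fold change of -0.14 ± 1.26, and Defa24 had at most 2 reads in any sample. The part of these markers in the Wnt3 level was not tested.

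The same samples were high and low in 3 targets of beta-catenin that were fixed by name, given here as the pathway's readout. Axin2, a feedback inhibitor, was at 178, 198 and 395 CPM in the restrained samples and 55.5, 104.9 and 103.6 CPM in the unrestrained ones. Notum, which removes the lipid from Wnt proteins, was at 103.8, 156 and 465 CPM, against 0.885, 109 and 65.2 CPM in the unrestrained samples. Lgr5, an R-spondin receptor of crypt stem cells, was at 51.4, 85.6 and 119 CPM, against 0.811, 50.5 and 21.5 CPM in the unrestrained samples. In these 3 genes, as in Wnt6, Wnt10a, Wnt3 and Fzd10, restrained replicate 3 was highest and unrestrained replicate 1 lowest. Of the 18 targets in the list given below, all did so except Ccnd1 and Ephb2, which are among the 3 of smallest p. Ccnd1 and Ephb2 were highest in restrained replicate 2, at 180 and 84.3 CPM, against 176 and 82.6 CPM in restrained replicate 3. Ephb2 was lowest in unrestrained replicate 2, at 52.3 CPM. With 6 samples and 1 at each end, whether the ligands and targets are linked was not tested.

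**Figure D3:**
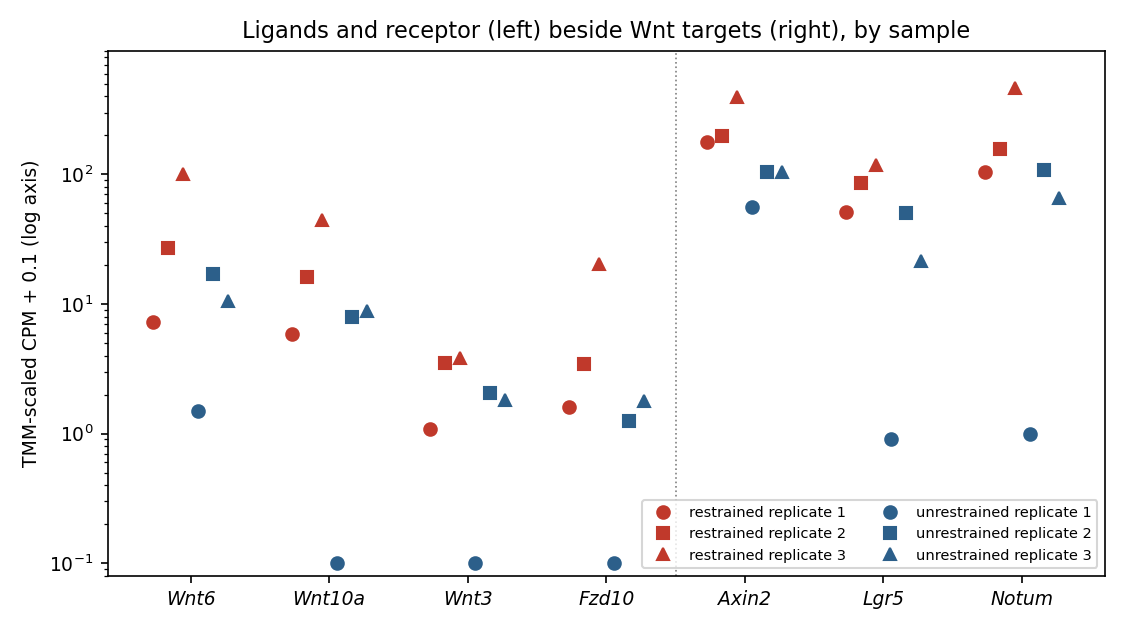
TMM-scaled CPM plus 0.1 (y axis, log scale) of Wnt6, Wnt10a, Wnt3 and Fzd10 (left of the dotted line) and of the beta-catenin targets Axin2, Lgr5 and Notum (right), 1 symbol per sample, restrained in red and unrestrained in blue. Points at 0.1 are genes with 0 counts. The red triangle (restrained replicate 3) is highest and the blue circle (unrestrained replicate 1) lowest in each column.

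The promoters of these genes are shown because Wnt6, Wnt3 and Fzd10 were high and low in the same samples. Each runs from 250 bases before to 50 bases after the annotated start, 5′ to 3′ on the gene's strand, from RefSeq (GRCm38.p6). Of the 39 genes, 25 had a promoter in that table, and Wnt10a and Lrp5 did not. Capitals mark CTTTG, or CAAAG on the other strand, the core of the sequence bound by TCF/LEF factors, the partners of beta-catenin. The Wnt6 promoter is chr1:74771642-74771941 (+ strand), that of Wnt3 is chr11:103773925-103774224 (+ strand), and that of Fzd10 is chr5:128600856-128601155 (+ strand).
Wnt6: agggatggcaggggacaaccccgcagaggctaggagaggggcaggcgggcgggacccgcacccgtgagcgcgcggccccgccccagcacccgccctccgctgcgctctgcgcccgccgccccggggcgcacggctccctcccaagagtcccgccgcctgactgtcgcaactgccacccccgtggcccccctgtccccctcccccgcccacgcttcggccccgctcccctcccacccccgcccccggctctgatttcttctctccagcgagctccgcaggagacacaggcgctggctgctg
Wnt3: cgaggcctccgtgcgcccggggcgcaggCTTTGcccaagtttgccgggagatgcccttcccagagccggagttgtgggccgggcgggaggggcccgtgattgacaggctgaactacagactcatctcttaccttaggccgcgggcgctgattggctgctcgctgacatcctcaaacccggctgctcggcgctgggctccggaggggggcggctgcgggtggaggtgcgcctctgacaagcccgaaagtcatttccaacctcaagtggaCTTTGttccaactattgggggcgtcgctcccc
Fzd10: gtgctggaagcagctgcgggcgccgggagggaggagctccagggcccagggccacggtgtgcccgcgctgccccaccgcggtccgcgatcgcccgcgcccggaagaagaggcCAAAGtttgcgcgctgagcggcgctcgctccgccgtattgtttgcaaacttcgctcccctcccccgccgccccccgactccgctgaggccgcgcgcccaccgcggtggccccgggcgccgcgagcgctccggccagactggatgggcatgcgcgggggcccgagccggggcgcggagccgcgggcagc
The Wnt6 window held no CTTTG, the Wnt3 window held 2 and the Fzd10 window held 1. CTTTG on either strand was in 11 of the 28 promoters listed for family genes, and in 53.9% of all 32851 promoters of that length, so its presence is common. The longer motif CTTTGAT on either strand, which contains CTTTG, was in 3.73% of all promoters and in 2 of the 28, 1 each of Wnt5b and Wnt11. The 3 windows were rich in G and C, at 76.7% for Wnt6, 65.7% for Wnt3 and 77.7% for Fzd10.

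Wnt5a, a stromal ligand that mostly signals without beta-catenin, was at 16.3, 31.8 and 22.7 CPM in the restrained samples, against 10.5, 22.0 and 13.7 CPM in the unrestrained ones. Unrestrained replicate 2 lay inside the restrained range. The log2 fold change was 0.62 ± 0.34 (SE) (edgeR adjusted p = 0.381), and it was 0.35 without restrained replicate 2, 0.40 without unrestrained replicate 1 and 0.96 without unrestrained replicate 2 (adjusted p = 0.721, 0.638 and 0.306). The 8 markers of the stroma just below the epithelium, such as Foxl1, summed to 221 to 289 CPM in restrained and 119 to 212 CPM in unrestrained samples, with none at 0. The largest part of that sum was F3, at 83.6 to 155 CPM in restrained and 52.7 to 66.2 CPM in unrestrained samples. Of the 8 markers, 6 had a fold change above 0 and 2, Foxf1 and Foxf2, below 0. The part of these markers in the Wnt5a level was not tested. Wnt2b, another stromal ligand, was at 2.11 to 3.28 CPM in restrained and 2.43 to 3.90 CPM in unrestrained samples (log2 fold change -0.22 ± 0.32), with no separation of the groups. St7l, a neighbouring gene, overlaps Wnt2b in the RefSeq annotation.

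Wnt4, a ligand of epithelium and mesenchyme that can signal without beta-catenin, was at 4.90, 3.32 and 3.43 CPM in the restrained samples, against 4.87, 8.80 and 20.7 CPM in the unrestrained ones. Restrained replicate 1 and unrestrained replicate 1 were almost level, and the high value was that of unrestrained replicate 3, the library with squamous keratins. The log2 fold change was -1.56 ± 0.53 (SE) (edgeR adjusted p = 0.259 and DESeq2 adjusted p = 0.0494). Without unrestrained replicate 3 it was -0.82 (unadjusted p = 0.0725, edgeR adjusted p = 0.349). Wnt7b, a ligand of several epithelia, showed the same library more sharply. It was at 0.306, 0.925 and 0.641 CPM in the restrained samples, against 0.0737, 0.180 and 5.84 CPM in the unrestrained ones. With all samples the log2 fold change was -1.71 ± 1.43, and without unrestrained replicate 3 it was 2.25, in the opposite direction (edgeR adjusted p = 0.545 and 0.292).

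Wnt16 and the receptor Fzd6 also had their highest value in that library. Wnt16 was at 1.78, 1.021 and 2.11 CPM in the restrained samples, against 0.295, 0.397 and 2.52 CPM in the unrestrained ones. Fzd6, which acts in planar cell polarity and hair patterning, was at 27.3, 26.1 and 30.2 CPM in the restrained samples, against 15.5, 13.6 and 36.4 CPM in the unrestrained ones. For both, the 3 restrained samples lay between unrestrained replicate 3 and the other 2 unrestrained samples. Without unrestrained replicate 3 the log2 fold change was 2.23 for Wnt16 and 0.94 for Fzd6 (edgeR adjusted p = 0.243 and 0.242), against 0.59 and 0.35 with all samples. Without another sample the lowest values were 0.15 for Wnt16 (without unrestrained replicate 1) and 0.10 for Fzd6 (without unrestrained replicate 2). The squamous markers were at 3014 CPM in that library, and their part in the levels of these 4 genes was not tested.

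**Figure D4:**
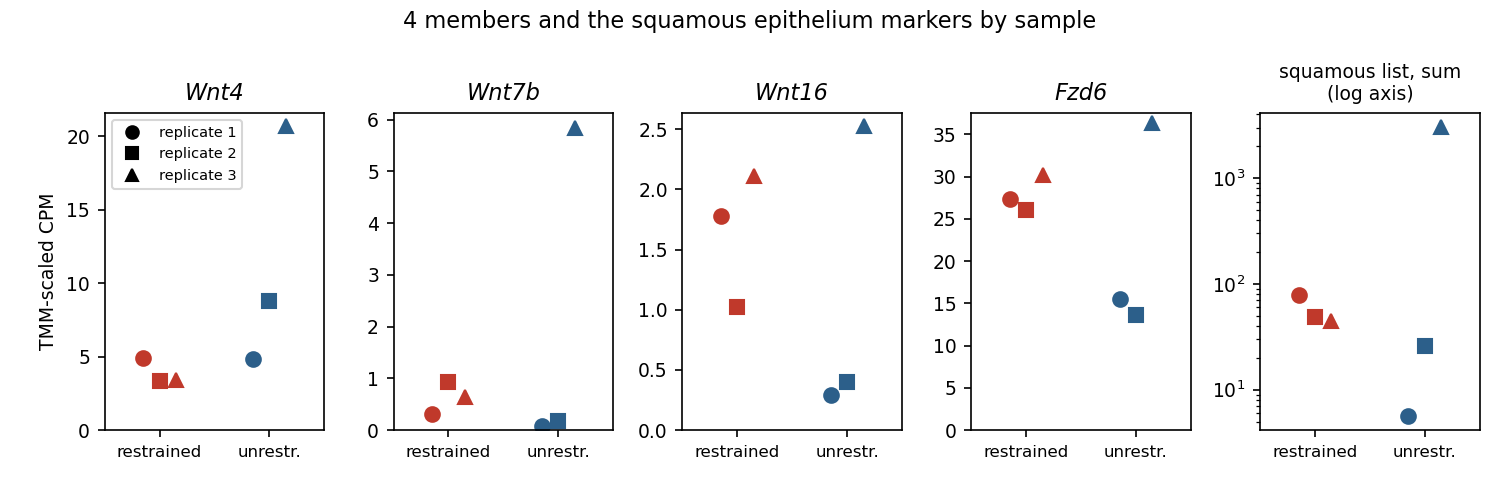
TMM-scaled CPM (y axes) of Wnt4, Wnt7b, Wnt16 and Fzd6 and the summed CPM of 11 squamous epithelium markers (log scale) in the 3 restrained (red) and 3 unrestrained (blue) samples, with 1 symbol shape per replicate. In all 5 panels the blue triangle, unrestrained replicate 3, is the highest point.

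The remaining ligands were scarce. Wnt10b, Wnt11, Wnt8b and Wnt9a averaged 0.245 to 0.352 FPKM over the 6 samples, and Wnt5b was at 3.71 to 7.01 CPM in restrained and 1.401 to 5.38 CPM in unrestrained samples. Their log2 fold changes ran from -0.89 (Wnt9a) to 1.085 (Wnt10b), all at an edgeR adjusted p of 0.438 or more. Single samples set much of these values. Wnt10b was at 0.22 without restrained replicate 3, Wnt9a at -0.45 without unrestrained replicate 3, and Wnt5b at 0.11 to 0.93 with a sample left out. Wnt1, Wnt2, Wnt3a, Wnt7a, Wnt8a and Wnt9b did not pass the filter on low counts. Wnt3a, the ligand most used to stimulate beta-catenin in culture, had 6 counts in unrestrained replicate 3 and none in the other 5 samples. Wnt7a was the only untested member whose groups did not overlap, with 6, 10 and 44 counts in restrained replicates 1, 2 and 3, against 0, 0 and 2 counts in unrestrained replicates 1, 2 and 3. With no filter its edgeR unadjusted p was 0.00908 and its adjusted p 0.265.

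Of the receptors, Fzd1 and Fzd5 were the most abundant, at means of 12.9 FPKM each over the 6 samples, followed by Fzd6 at 6.03 and Fzd7 at 5.35 FPKM. Fzd1 and Fzd5 together made up 60.0%, 56.5% and 44.5% of summed Frizzled FPKM in the restrained samples and 62.8%, 60.1% and 55.6% in the unrestrained ones. The sum over all 10 Frizzleds was 45.1 to 50.5 FPKM in restrained and 39.2 to 48.2 FPKM in unrestrained samples, and all 10 passed the filter. Fzd5, the main Frizzled of Paneth cells in mouse intestine, had a log2 fold change of -0.12 ± 0.24, and Fzd7, a receptor of Lgr5-positive stem cells in mouse intestine, of 0.17 ± 0.16. Fzd1 was among the steadiest members, at 56.8 to 58.1 CPM in restrained and 49.7 to 60.4 CPM in unrestrained samples.

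Fzd8 was at 8.82, 5.65 and 4.48 CPM in the restrained samples, against 13.6, 11.3 and 7.88 CPM in the unrestrained ones. Restrained replicate 1 lay above unrestrained replicate 3, so the groups overlapped. The log2 fold change was -0.79 ± 0.33 (SE), at an unadjusted p of 0.048 and an edgeR adjusted p of 0.298. Leaving out each sample in turn gave -1.099 to -0.59, with unadjusted p-values of 0.0143 to 0.137. With scaling by library size only the unadjusted p was 0.0501. Fzd3, a receptor known for axon guidance, was at 2.60 to 6.92 CPM in restrained and 1.86 to 3.499 CPM in unrestrained samples (log2 fold change 0.91 ± 0.44, edgeR adjusted p = 0.34). Without restrained replicate 3 its log2 fold change was 0.52, and without unrestrained replicate 2 it was 1.222. Fzd2, Fzd4 and Fzd9 had log2 fold changes of 0.28, 0.20 and 0.052, each within about 1 SE of 0.

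The co-receptors differed from each other. Lrp5 was at 87.6, 104.03 and 102.8 CPM in restrained replicates 1, 2 and 3, against 64.9, 63.5 and 59.7 CPM in unrestrained replicates 1, 2 and 3. The groups were far from overlapping, with a mean of 98.1 ± 9.18 CPM in restrained samples and 62.7 ± 2.70 CPM in unrestrained samples (SD, n = 3 each). By edgeR the log2 fold change was 0.65 ± 0.10 (SE), at an unadjusted p of 0.000405 and an adjusted p of 0.191, the smallest of the table, which other genes shared. DESeq2 called it, at an adjusted p of 0.000273. Leaving out each sample in turn gave 0.61 to 0.73, and edgeR adjusted p-values of 0.198 to 0.546. Lrp5 was also higher in all 3 restrained samples by library-size scaling and on the deposited FPKM scale, at 16.9 to 20.9 FPKM in restrained and 11.5 to 12.5 FPKM in unrestrained samples.

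Lrp6, which is the more widely needed of the pair in mouse development, was at 133, 114 and 112 CPM in the restrained samples, against 160, 119 and 138 CPM in the unrestrained ones. Restrained replicate 1 lay above unrestrained replicate 2. The log2 fold change was -0.21 ± 0.14 (edgeR adjusted p = 0.435). The ratio of Lrp5 to Lrp6 within a sample does not depend on the scaling between samples. On the FPKM scale it was 1.195, 1.65 and 1.66 in the restrained samples, against 0.737, 0.966 and 0.786 in the unrestrained ones. On that scale Lrp5 thus exceeded Lrp6 in all 3 restrained samples and in none of the unrestrained ones. By counts, without division by gene length, Lrp5 was below Lrp6 in every sample. The count ratio was 0.660, 0.913 and 0.916 in the restrained samples, against 0.407, 0.533 and 0.434 in the unrestrained ones. The mean FPKM ratio was 1.502 ± 0.266 in restrained samples and 0.830 ± 0.121 in unrestrained samples (SD, n = 3 each). The two-sided exact permutation p was 0.1, the smallest that 3 samples against 3 can give. The ratio was not among the planned results, and Lrp5 alone already separated the groups, so this p-value adds no independent support. Smooth muscle and enteric neuron markers and Cd74 were lower in restrained samples, as given above, while other leukocyte markers were mixed. Their part in the Lrp5 difference was not tested.

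**Figure D5:**
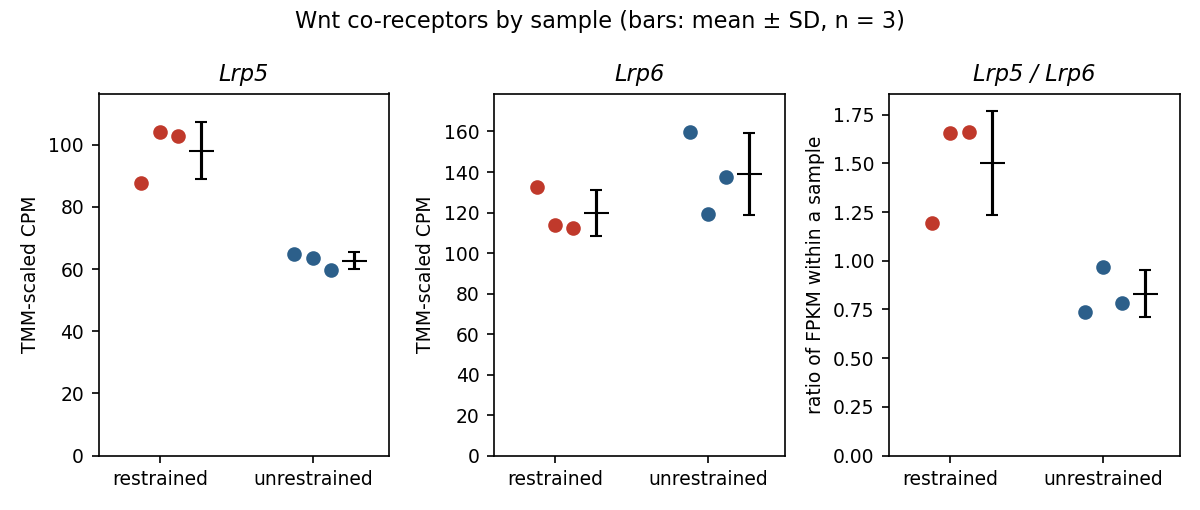
TMM-scaled CPM (y axes) of Lrp5 and Lrp6 and the ratio of their FPKM within a sample, with 3 restrained samples (red) left of 3 unrestrained samples (blue) in each panel and bars of mean ± SD. Lrp5 and the ratio separate the groups, at 87.6 CPM or more in restrained and 64.9 CPM or less in unrestrained samples, and Lrp6 does not.

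The R-spondins were low. Rspo3, the main R-spondin of mouse colon, was at 2.21, 4.91 and 2.15 CPM in the restrained samples, against 2.91, 4.80 and 6.81 CPM in the unrestrained ones. Restrained replicate 2 lay above 2 of the unrestrained samples. Rspo1 was at 0.306, 0.957 and 0.384 CPM, against 1.47, 0.361 and 1.399 CPM in the unrestrained samples, and Rspo2 at 0.184, 0.511 and 0.192 CPM, against 1.106, 0.469 and 0.608 CPM in the unrestrained samples. All 3 had a fold change below 0, with log2 values of -0.65 ± 0.46, -0.97 ± 0.69 and -1.29 ± 0.62 for Rspo3, Rspo1 and Rspo2, at an edgeR adjusted p of 0.339 or more. Without restrained replicate 2, Rspo2 and Rspo3 reached unadjusted p-values of 0.0323 and 0.0436 (edgeR adjusted p = 0.555 for each), and Rspo1 had a log2 fold change of -1.63. Without unrestrained replicate 3, Rspo3 was at -0.32, and without unrestrained replicate 1, Rspo2 was at -0.86, with unadjusted edgeR p-values of 0.548 and 0.253. Rspo4, which is known for nail growth, had 20 counts in restrained replicate 3 and at most 2 elsewhere, and was not tested. Smooth muscle markers were lower in restrained samples too. The 5 markers of the submucosal stroma at the crypt base, where R-spondins are made, summed to 329 to 368 CPM in restrained and 291 to 452 CPM in unrestrained samples. Cd81 was the largest part of that sum, at 203 to 228 CPM in restrained and 163 to 222 CPM in unrestrained samples. Of the 5, 2 had a fold change above 0 and 3, Grem1, Ackr4 and C3, below 0. The part of the muscle and stroma markers in the R-spondin levels was not tested.

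Among the Sfrps, Sfrp1 was the most abundant, at 5.14 ± 1.61 FPKM in restrained and 4.97 ± 1.65 FPKM in unrestrained samples (SD, n = 3 each). Sfrp1, Sfrp2 and Sfrp5 had log2 fold changes of 0.0055, 0.20 and -0.021, with SEs of 0.31 to 0.38. Their groups overlapped, and the sign of the Sfrp1 and Sfrp5 values turned with the scaling. Sfrp4 was at 0.582, 2.07 and 1.25 CPM in the restrained samples, against 0.0737, 0.433 and 0.365 CPM in the unrestrained ones. These are 19, 65 and 39 reads in restrained samples and 2, 12 and 12 reads in unrestrained samples. The groups did not overlap, and the log2 fold change was 2.14 ± 0.73 (SE), at an unadjusted p of 0.0225 (edgeR adjusted p = 0.26, DESeq2 adjusted p = 0.108). Without restrained replicate 2 it was 1.64, at an unadjusted p of 0.0906. Frzb, the gene also known as Sfrp3 and so outside the symbols chosen, was at 4.39 to 4.69 CPM in restrained and 2.80 to 5.82 CPM in unrestrained samples.

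Lists of other genes of the pathway were set beside these, and no gene of them passed an adjusted p of 0.05 in edgeR. Of 7 other receptors and co-receptors, all 7 had a fold change above 0, 4 at an unadjusted p under 0.05 (7.82% of all genes were higher at that level), and the list's median log2 fold change was 0.63. Ror2, a receptor of Wnt5a, was at 15.1, 16.4 and 16.1 CPM in restrained samples, against 7.003, 11.8 and 11.4 CPM in unrestrained samples. Its log2 fold change was 0.66 ± 0.23 (edgeR adjusted p = 0.265). Ptk7, a co-receptor in planar cell polarity, had 1.018 ± 0.39 (adjusted p = 0.286), and Smo, the Hedgehog transducer of the Frizzled class, 0.63 ± 0.23 (adjusted p = 0.268). Smo is not a Wnt receptor, but it is among the 4 and is the gene at the list's median.

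Of the 5 R-spondin receptors and ubiquitin ligases, 4 had a fold change above 0, with groups that did not overlap, and 2 of these had an unadjusted p under 0.05. Over all genes, 12.5% did not overlap and were higher, and 7.82% were higher at that p. The groups of Lgr5 overlapped on the FPKM scale and by library size. Rnf43 was at 110.5, 152 and 216 CPM in restrained samples, against 42.9, 84.5 and 78.4 CPM in unrestrained samples (log2 fold change 1.216 ± 0.33, edgeR adjusted p = 0.215, DESeq2 adjusted p = 0.0103). Znrf3 had 1.11 ± 0.40 (edgeR adjusted p = 0.27). Rnf43, Znrf3 and Lgr5 are themselves targets of beta-catenin and are counted again among the targets below. Notum and the antagonist Apcdd1 are likewise counted both in another list and among the targets. The counts of these lists are therefore not independent. Lgr4, the widely expressed R-spondin receptor, had -0.13 ± 0.18.

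Of the 11 antagonists, 9 were tested, 7 above 0 and 2 below, with a median of 0.070. Dkk2, of the family that binds Lrp5 and Lrp6, was at 22.1, 55.4 and 87.3 CPM in restrained samples, against 1.25, 9.96 and 12.5 CPM in unrestrained samples. The groups did not overlap and the log2 fold change was 2.79 ± 0.86 (edgeR adjusted p = 0.25). Sostdc1, another ligand of the co-receptors, was at 0.184 to 0.447 CPM in restrained and 0.737 to 1.55 CPM in unrestrained samples, with -1.93 ± 0.54 (adjusted p = 0.219). Dkk1 had no read in 5 of the 6 samples.

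The list for the making, release and cutting of Wnt proteins had 4 genes, 2 above 0 and 2 below, and none at an unadjusted p under 0.05. Porcn, which attaches the lipid, had -0.18 ± 0.41. Of the 9 cytoplasmic transducers, 7 had a fold change above 0 and 2 below, with a median of 0.21. The groups did not overlap for 5 that were higher and 1 that was lower, against 12.5% and 11.2% of all genes. Ctnnb1, beta-catenin itself, was at 1241, 1387 and 1535 CPM in restrained samples, against 1124, 1014 and 1191 CPM in unrestrained samples. Its log2 fold change was 0.32 ± 0.13, and that of Gsk3a, a kinase that marks beta-catenin for removal, was 0.25 ± 0.095 (edgeR adjusted p = 0.294 and 0.285). Dvl1, the scaffold below Frizzled, was at 92.4, 94.1 and 101.4 CPM in restrained samples, against 120.05, 120.7 and 108.3 CPM in unrestrained samples. Its log2 fold change was -0.28 ± 0.10 (edgeR adjusted p = 0.26). Of the 18 beta-catenin targets, all 18 had a fold change above 0, with a median of 1.44, 7 at an unadjusted p under 0.05 and 14 with groups that did not overlap, against 7.82% and 12.5% of all genes in that direction. Ccnd1, which drives entry into the cell cycle, Ephb2, a receptor that positions crypt cells, and Sox4, a transcription factor, had 0.66 ± 0.11, 0.51 ± 0.099 and 1.93 ± 0.43 (edgeR adjusted p = 0.191 for each). Axin2 had 1.55 ± 0.38 (edgeR adjusted p = 0.195). DESeq2 called these 4 genes as well as Rnf43, at adjusted p-values of 4.09e-05 for Ccnd1, 0.00413 for Ephb2, 0.0003455 for Sox4 and 0.00212 for Axin2.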

How the data were processed

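RNA of 6 colon tissue samples was sequenced. The authors deposited 1 table with, per the file headers, raw whole-number counts per gene and FPKM values (fragments per kilobase, scaled to depth, computed by the authors) for each sample. Software listed in the submitters' processing notes, without roles, comprises edgeR 3.24.3, DESeq2 1.22.1, StringTie 1.3.4d, HISAT2 2.1.0, fastp 0.19.3 and featureCounts 1.6.2, and the genome build is GRCm39. Annotation and strand setting were not given in the sources used here. Groups were taken from the labels' treatment, and replicates were numbered in accession order.

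Counts were filtered with filterByExpr (15890 of 20170 genes kept), normalised by TMM and compared by edgeR 4.0.16 in its quasi-likelihood test (robust dispersions, R 4.3.3), with Benjamini-Hochberg adjustment over all genes tested. Fold changes are restrained minus unrestrained, with SE as the absolute log2 fold change over the square root of F. FPKM served for levels between genes and within-sample ratios. DESeq2 1.42.0, limma-voom (limma 3.58.1), other scalings, no filter and each sample left out were the alternatives. No 2 samples were alike within sampling noise (chi-square per gene of 39.3 or more, where about 1 is sampling). On simulated counts of this comparison (15699 genes, of which 67, 67 and 66 changed 1.5-, 2- and 4-fold), edgeR recovered 2.99%, 38.8% and 72.7% of these with 11 false calls, and DESeq2 11.9%, 59.7% and 86.4% with 59. In the simulation each gene varied on its own, with no variation shared by the genes of a sample. Recovery and false calls in the real libraries may therefore differ. The motif search used both strands.

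The family, the lists and the tests were chosen with earlier results of these data known. Any family gene could be named; per-sample values were to be given for those at a mean of at least 1 CPM with an unadjusted p under 0.05 or groups that do not overlap. Other per-sample values (Sfrp4, Wnt3, Wnt5a, Wnt6, Wnt7a, Wnt7b, Wnt10a, Wnt16, Fzd6, Fzd10, Lrp6 and the R-spondins) were chosen after being seen. So were Krt5, Cd74, Cd68, Itgam, Trp63, Foxl1, F3, Foxf1, Foxf2, Lyz1, Lgr4 and Dkk1. The same holds for Mmp7, Mptx2, Defa24, Cd81, Grem1, Ackr4, C3, Krt18, Slc26a3 and Cdx2. From each pathway list up to 3 genes of smallest p could be named, with Axin2, Lgr5, Notum and Frzb whatever their values.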

Additional observations from a re-analysis of the deposited data

How the results depend on the processing

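No paired analysis was possible because the labels number no replicates and pair no samples. The count of genes past an adjusted p of 0.05 was 0 in edgeR under every scaling and filter and with each sample left out. It was 0 in limma-voom (2591 at an unadjusted p under 0.05) and 818 in DESeq2. In simulated counts DESeq2 made more false calls than edgeR (59 against 11). Because genes varied independently there, that does not show how many of the 818 are false. The count at an unadjusted p under 0.05, 2644 in the main test, ran from 1429 (without restrained replicate 2) to 2990 with a sample left out, and was 1602 without restrained replicate 3. The count of higher family genes at that level ran from 2 to 5, and of lower ones from 0 to 2. The lower count was 1 by library-size scaling, where Fzd8 missed it, and 1 in limma-voom, where Wnt4 missed it. By library size only, genes at an unadjusted p under 0.05 were 1399 higher and 1203 lower, and by upper-quartile scaling 1016 higher and 1582 lower, against 1243 and 1401 in the main test.

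Signs turned for family genes with values near 0 and for Wnt7b. Sfrp1 was -0.016 by upper-quartile scaling and -0.028 in limma-voom, Sfrp5 0.019 by library size only, Fzd9 -0.036 and Wnt7b 0.17 in limma-voom. With a sample left out, log2 fold changes ran from -0.030 to 0.11 for Fzd1, -0.37 to 0.097 for Fzd5 and -0.34 to 0.36 for Fzd9. They ran from -0.20 to 0.25 for Sfrp1, -0.058 to 0.49 for Sfrp2, -0.13 to 0.096 for Sfrp5 and -2.27 to 2.25 for Wnt7b. The causes were not tested. Lrp5 and Wnt4 passed an adjusted p of 0.05 in DESeq2 alone. Lrp5 kept its direction in every alternative run. At these depths the precision of scarce genes is limited by their counts, such as 0 to 44 reads per sample for Wnt7a and 2 to 65 for Sfrp4.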
